A study of Mus musculus with 9 samples.

Results

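Cultured mouse inguinal adipose cells that had been taken through white adipocyte differentiation with 100 µM sodium alginate were compared, gene by gene, with cells differentiated without it. The comparison rested on 6 of the 9 deposited libraries, the 3 at 100 µM and the 3 at 0 µM. It covered every gene with at least 1 FPKM (fragments scaled by gene length and library size, as deposited) in at least 3 of the 9 libraries, which left 12635 of 41761 genes. Members of the comparison were thus set by dose label and by level alone, with no measured difference used to choose them.

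All libraries came from primary, adherent adipose-derived cells of the inguinal white fat depot of wild type C57 mice. Per the treatment protocol, confluent cultures of every dose were induced in medium with 10% serum by 1 µg/ml of insulin, 0.5 mM of IBMX (a phosphodiesterase inhibitor) and 1 µM each of dexamethasone and rosiglitazone, and were then kept on insulin plus rosiglitazone. Rosiglitazone, an agonist of the fat cell receptor PPARγ, was therefore shared by the untreated and the alginate cultures, although the series' design text does not list it. The only stated difference between the groups was sodium alginate, at 0 µM in the one and 100 µM in the other, present throughout induction. A length of 6 days stands in the treatment labels and titles, while RNA was collected on day 7 according to the protocol. Groups were taken from the treatment label and the library name, which both give 100 µM for 3 libraries that are titled 50 µM. Each library was made from 1.3 µg of total RNA. The labels state 3 per dose without saying what was replicated, a culture, an animal or a library, so p-values measure the spread between libraries, which may be technical.

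Alginate is the salt of a polysaccharide of brown algae, built from mannuronic and guluronic acid. In fat cell formation, spindle-shaped stromal progenitors that make collagen and carry stress fibres round up, dismantle much of that matrix and contractile machinery, and fill with lipid. At the same time they build mitochondria and peroxisomes, which supply the citrate, the reducing power and the ATP that lipid storage needs.

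With limma's moderated test on log2(FPKM + 1), 2314 genes were called higher and 1965 lower at 100 µM, at a Benjamini-Hochberg adjusted p below 0.05 over all genes tested. That is 33.9% of the genes tested, 18.3% called higher and 15.6% called lower, and each count of list members given here is to be read against those shares. The median log2 fold change over all genes was 0.006. Groups did not overlap, with all 3 libraries at 100 µM above all 3 untreated libraries, in 25% of genes and lay the other way round in 22.9%. All fold changes are differences of mean log2(FPKM + 1), which understates changes of genes with low values, and a value after "rose by", "fell by" or "at" without a unit is such a log2 fold change. Reads per library, rebuilt from the deposited values, ranged from 14019672 to 17094467. Per library, a scaling factor built into the deposited values ran from 1.01 to 1.03 at 0 µM and from 0.969 to 0.976 at 100 µM. It bears on the balance of calls. With that factor removed, 1731 genes were higher and 2658 lower, and with a common sum per library, as in TPM, 1630 were higher and 2633 lower. None of the 4279 genes called took the opposite call under any of the 16 alternative settings run.

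The cell type label of all libraries is mature white adipocyte, and its markers were checked. Of 18 mature adipocyte markers 17 passed the filter and all of those were called higher, with a summed level of 7488 to 7763 FPKM untreated and 11152 to 11915 FPKM treated. Stromal markers were present too, and 10 of 15 were lower, summing to 997 to 1090 FPKM untreated and 599 to 668 FPKM treated. Macrophage markers summed to 299 to 329.8 FPKM untreated and 238 to 248 FPKM treated, with 11 of 13 lower. Endothelial markers summed to 255 to 283 FPKM untreated and 215 to 223 FPKM treated, with 13 of 16 lower, or 8 when untreated library 3 was left out. Mural and smooth muscle markers summed to 318 to 360.5 FPKM untreated and 224 to 243 FPKM treated, with 4 of 11 lower and 2 higher, or 1 higher without untreated library 1 or 3 or treated library 3. No lymphocyte, epithelial or erythroid marker passed the filter, and the lymphocyte genes Cd3d and Nkg7 and the erythroid gene Hba-a1 were at 0 in every library. Mesothelial markers summed to 7.17 to 9.80 FPKM untreated and 4.41 to 5.18 FPKM treated. Both groups thus held RNA of genes that mark other cell types than the label names. In bulk RNA, fewer cells of a type and less RNA per cell cannot be told apart.

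Genes were grouped into 68 lists of pathways, organelles and gene families, leaving the usual adipocyte reference genes aside where possible. Only RNA was examined, so higher and lower refer throughout to the RNA of genes, not to protein, flux or organelle content. In 26 of these lists more members were called higher than lower, in 40 more were lower, and in 2 the counts were equal. In 13 lists limma called 0 members in one direction. At an unadjusted p under 0.05, 11 of those lists had 0 members in that direction as well, and cytosolic ribosomal genes and small leucine-rich proteoglycans had 1 each. Voom on rebuilt reads called 0 in that direction in 12 of them and 1 small leucine-rich proteoglycan higher. Other settings broke some of these zeros. Clock genes had 2 lower under a common sum and 3 with the factor per library removed. With a replicate block 1 gene of the TCA cycle and pyruvate entry list was lower. Mitochondrial and peroxisomal lists stood at one end and matrix, chemokine and collagen-processing lists at the other, as the plot of list members shows.

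**Figure D1:**
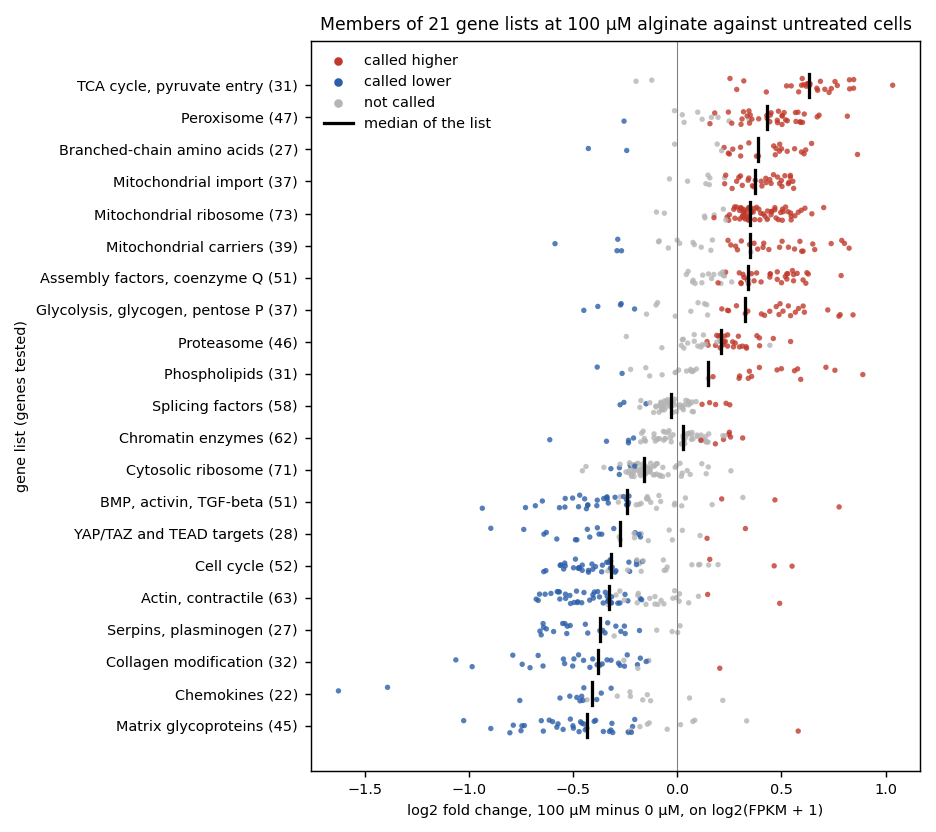
Log2 fold change (100 µM minus 0 µM, on log2(FPKM + 1), horizontal axis) of each tested member of 21 gene lists (vertical axis, genes tested in brackets), coloured by call, with the list's median as a black bar. Medians run from 0.63 for the TCA cycle and pyruvate entry to -0.43 for matrix glycoproteins, while the medians of splicing (-0.03) and chromatin genes (0.03) lie near 0.

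RNA was higher for genes of pyruvate entry into mitochondria and of the TCA cycle, which turns acetyl groups into CO2 and reduced cofactors. Mature adipocyte markers moved with them, all 17 tested being higher at a median of 0.62. The sum of these markers went from 7488 to 7763 FPKM untreated to 11152 to 11915 FPKM treated. Their part in this and the following mitochondrial, proteasome, peroxisomal and metabolic results was not tested. Of 31 genes tested in this list, 29 were called higher and 0 lower, with a median log2 fold change of 0.63 against 0.006 over all genes. The exceptions were Pdk1, a kinase that shuts pyruvate dehydrogenase, at -0.12, and Pdp1, a phosphatase that reopens it, at -0.20, neither of which passed the test. With a replicate block Pdp1 was called lower, at limma adjusted p = 0.0453. Other such kinases, Pdk2 at 0.73 and Pdk4, and the phosphatase Pdp2 were among the genes called higher. Mpc1 encodes a subunit of the carrier that brings pyruvate across the inner membrane, and lies on chromosome 17, 6029500 to 6044276, plus strand of the C57BL/6NJ assembly used in the table. It stood at 48.97, 48.7 and 38.1 FPKM in the untreated libraries and at 103, 87.9 and 89.3 FPKM at 100 µM. Every treated library exceeded every untreated one, with a log2 fold change of 1.03 with an SE of 0.097 (limma adjusted p = 7.0e-05). Its partner subunit Mpc2 rose by 0.77.

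Within the cycle and its shuttles, the genes for enzymes of successive steps were higher. Mdh1, the cytosolic malate dehydrogenase of the malate shuttle, stood at 231, 209.8 and 222 FPKM untreated and 409, 403 and 383 FPKM treated, without overlap and with a log2 fold change of 0.85 with an SE of 0.048 (limma adjusted p = 1.5e-05). Cs, citrate synthase, rose by 0.74. All 3 subunit genes of the NAD-dependent isocitrate dehydrogenase rose by near-equal amounts, Idh3a by 0.62, Idh3b by 0.64 and Idh3g by 0.61. Sucla2, a succinyl-CoA ligase subunit, rose by 0.67 and Suclg2, the subunit that makes the enzyme GTP-forming, by 0.29. Pcx, pyruvate carboxylase, which refills oxaloacetate, rose by 0.85.

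The respiratory chain's own subunits are usual adipocyte readouts, so the factors that assemble it were examined separately. Of 51 assembly factors and coenzyme Q genes, 33 were higher and 0 lower (median 0.34). Cox11, which delivers copper to cytochrome oxidase, stood at 19.8, 18.9 and 20.7 FPKM untreated and 30.7, 30.7 and 31.3 FPKM treated, a log2 fold change of 0.62 with an SE of 0.052 (limma adjusted p = 4.0e-05). The treated values lay clear of the untreated ones. Ndufaf1, an early assembly factor of complex I, rose by 0.60, and Atpaf2, an ATP synthase assembly factor, by 0.63. Among 13 coenzyme Q genes 7 were higher, led by Coq8a, an atypical kinase of the synthesis complex, at 0.79, with Coq5 at 0.62 and the methyltransferase Coq3 at 0.55. Chchd10, a protein of the intermembrane space, was among the 15 largest increases outside the adipocyte reference genes, at 165, 145 and 153 FPKM untreated and 300.1, 297 and 289.6 FPKM treated. The groups were far apart relative to their spread, with a log2 fold change of 0.93 with an SE of 0.051 (limma adjusted p = 1.5e-05).

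Iron-sulfur clusters and haem are the cofactors of these enzymes. In their synthesis 21 of 33 genes were higher and 1 lower (median 0.32). Glrx5, a glutaredoxin that passes clusters on, rose by 0.58, and Isca2, an assembly factor of the later steps, by 0.56. Alad, an early haem enzyme, rose by 0.66, and Alas1, the first and rate-limiting one, by 0.44. The gene that fell was Hmox1, haem oxygenase, which breaks haem down. It stood at 251, 278 and 259 FPKM untreated and 204, 212 and 184 FPKM treated, a log2 fold change of -0.39 with an SE of 0.071 (limma adjusted p = 0.0026).

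Mitochondria translate their own few messages on ribosomes whose proteins are all encoded in the nucleus. Of 73 mitochondrial ribosomal protein genes tested, 65 were higher and 0 lower (median 0.35), with 42 of 46 genes of the large subunit and 23 of 27 of the small subunit. Mrpl12, a large-subunit protein, rose by 0.70, Mrpl51 by 0.61 and Mrps16 by 0.58. Mrps7, another small-subunit protein, stood at 30.4, 31.2 and 31.7 FPKM untreated and 45.05, 41.9 and 41.9 FPKM treated, a log2 fold change of 0.45 with an SE of 0.045 (limma adjusted p = 1.0e-04). Its groups did not overlap.

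Promoters of such genes often carry sites for NRF1, a factor of mitochondrial biogenesis. The motif searched was GCGCA, any 1 base and GCGC, read on both strands in the 250 bases before each start in RefSeq's promoter table (GRCm38.p6), which matched 8417 of the 12635 genes tested by symbol. It was in 3.74% of all promoters in that table, in 8.38% of promoters of the genes tested, in 13.4% of those of mitochondrial ribosomal genes, in 9.63% of those of genes called higher and in 4.21% of those called lower. Other mitochondrial lists differed, with 16.7% for import and protein quality genes. The TCA cycle and pyruvate entry list had it in 8.33%, and assembly factors and coenzyme Q genes in 4.0%. Promoters of genes without a call had it in 9.12%, close to the share for genes called higher. All motif shares count promoters, of which a gene can have more than 1 (1831 for 1387 genes called lower). Nrf1 itself, at a log2 fold change of -0.02, did not pass the test. The Mrpl12 promoter is shown because this gene had the largest change among mitochondrial ribosomal genes with a matched promoter that holds the motif. It lies at chr11:120484387-120484636 (GRCm38.p6, plus strand) and is printed with the match in capitals, which starts 81 bases before the gene and reads the motif on the opposite strand.
Mrpl12: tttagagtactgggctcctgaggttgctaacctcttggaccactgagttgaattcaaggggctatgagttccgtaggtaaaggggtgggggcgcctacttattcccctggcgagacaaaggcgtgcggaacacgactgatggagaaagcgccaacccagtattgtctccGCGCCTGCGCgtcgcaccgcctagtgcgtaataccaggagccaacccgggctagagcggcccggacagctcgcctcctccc
A match is a description of letters and not evidence of binding.

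Proteins must also be brought in and kept in order. Of 37 import and protein quality genes, 30 were higher and 0 lower (median 0.37). Grpel1, a co-chaperone of the import motor, stood at 50.2, 46.2 and 47.3 FPKM untreated and 71.1, 71.7 and 69.7 FPKM treated, with a log2 fold change of 0.56 with an SE of 0.040 (limma adjusted p = 2.1e-05) and no overlap. The prohibitins Phb and Phb2, ring-forming scaffolds of the inner membrane, rose by 0.54 and 0.46. Clpx, the unfolding subunit of a matrix protease, rose by 0.53, and the chaperone Hspd1 by 0.43.

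Among 39 mitochondrial carriers 24 were higher and 4 lower (median 0.35), or 2 lower without untreated library 2 or treated library 3. Slc25a10, the dicarboxylate carrier, stood at 59.3, 53.5 and 54.1 FPKM untreated and 103, 94.96 and 92.4 FPKM treated, a log2 fold change of 0.79 with an SE of 0.057 (limma adjusted p = 2.2e-05). Slc25a1, which exports citrate for lipid synthesis, rose by 0.82, and Slc25a42, which carries coenzyme A, by 0.60. Those that fell were led by Slc25a24, a calcium-regulated ATP-magnesium carrier, at 6.13, 6.93 and 7.46 FPKM untreated and 4.39, 3.97 and 4.28 FPKM treated, a log2 fold change of -0.59 with an SE of 0.084 (limma adjusted p = 0.00072). Slc25a37, an iron importer, fell by 0.29. The other lower calls were weaker. Slc25a12, an aspartate-glutamate carrier, at -0.27, went to limma adjusted p = 0.0601 without untreated library 2 and 0.0527 without treated library 3. Slc25a45, at -0.29, lost its call when any single library except treated library 1 was left out, at limma adjusted p from 0.0513 to 0.141.

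Of 27 genes of mitochondrial shape, cristae and genome upkeep, 21 were higher and 0 lower (median 0.32). The proteins that hold cristae junctions rose together, Apoo by 0.83, Chchd3 by 0.66, Chchd6 by 0.66 and Immt by 0.55. Apoo stood at 21.4, 18.6 and 18.2 FPKM untreated and 36.8, 36.1 and 32.6 FPKM treated, without overlap. Both fusion genes, Mfn2 and Mfn1, rose, by 0.45 and 0.32, and the fission factor Mtfp1 rose from 7.93 ± 0.878 to 15.6 ± 1.33 FPKM (means ± SD, n = 3), for a log2 fold change of 0.90 with an SE of 0.11 (limma adjusted p = 0.0003). Tfam, which packages mitochondrial DNA, rose by 0.23, and Polrmt, the mitochondrial RNA polymerase, by 0.43. Rhot1 and Rhot2, GTPases that tie mitochondria to motors, rose by 0.43 and 0.53.

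Cytosolic ribosomal protein genes did not share this movement. Of 71 tested, 0 were higher and 5 lower, with a median of -0.16. Protein-coding genes named Rpl or Rps with a number, tested or not, held 2.60% to 2.78% of rebuilt reads in the untreated libraries. In the treated libraries they held 2.05% to 2.47%. The genes called lower were Rpl4, Rpl5, Rpl22, Rps3 and Rps20. Rpl5, a large-subunit protein, stood at 72.2, 74.4 and 70.4 FPKM untreated and 61.4, 61.3 and 55.9 FPKM treated, a log2 fold change of -0.28 with an SE of 0.062 (limma adjusted p = 0.0077). How many were called lower depended on scaling, with 31 under a common sum, 45 under quantile normalization, 27 with voom on rebuilt reads and 2 with a replicate block, and with 14 when treated library 1 was left out against 2 when any other single library was. Among them Rpl22, Rps3 and Rps20 lost their calls when any single library except treated library 1 was left out, at limma adjusted p from 0.057 to 0.132, 0.0501 to 0.0813 and 0.0734 to 0.133 respectively. No setting called more than 1 cytosolic ribosomal gene higher. Most of these genes have processed pseudogenes with which reads can be shared, so single values are uncertain.

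**Figure D2:**
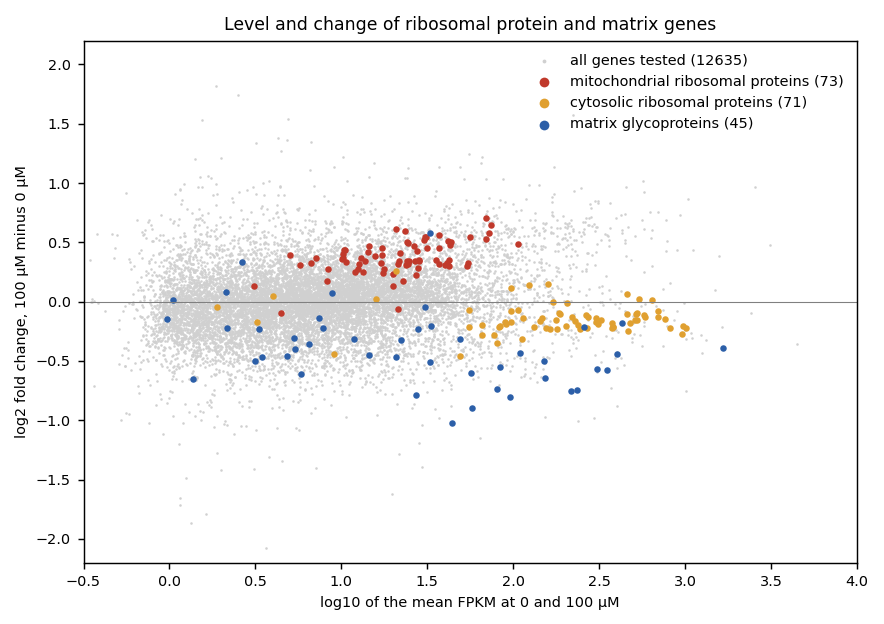
Log2 fold change (100 µM minus 0 µM) against the log10 of the mean FPKM at 0 and 100 µM, with 1 point per gene. Mitochondrial ribosomal protein genes (red) lie above 0 with few exceptions, cytosolic ribosomal protein genes (orange) lie mostly just below 0 at higher levels, and matrix glycoprotein genes (blue) lie mostly well below 0.

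Transcripts of the proteasome, which degrades ubiquitin-tagged proteins, shifted upward by small steps. Of 46 genes 29 were higher and 0 lower (median 0.21), split over the core particle with 11 of 15 and the regulatory particle with 12 of 19. Psma1, a core subunit, stood at 172, 164 and 173 FPKM untreated and 225, 243 and 233 FPKM treated, a log2 fold change of 0.46 with an SE of 0.044 (limma adjusted p = 7.7e-05). The activator subunit Psme2 rose by 0.54. Nfe2l1, the transcription factor that drives proteasome genes when proteolysis falls short, rose by 0.39. The count of higher genes was 19 under a common sum, 18 with the factor per library removed and 11 under quantile normalization, with no gene called lower in any of them.

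Transcripts of peroxisomes, which shorten very long and branched fatty acids, were higher too. Of 47 genes 37 were higher and 1 lower (median 0.43). Importers and membrane builders rose, with Pex6, part of the receptor-recycling ATPase, at 15.9, 15.8 and 16.1 FPKM untreated and 25.3, 24.4 and 24.9 FPKM treated. This pair of groups was tightly set and clearly apart, with a log2 fold change of 0.61 with an SE of 0.036 (limma adjusted p = 1.5e-05). Pex19, a receptor for membrane proteins, rose by 0.53 and Pex16 by 0.59. Among enzymes, Crat, carnitine acetyltransferase, rose by 0.82, Hsd17b4, the multifunctional enzyme of the next steps, by 0.58, and Cat, catalase, by 0.39. Nudt7, which hydrolyses coenzyme A in peroxisomes, rose by 0.68. The exception was Far1, which makes the fatty alcohol of ether lipids and fell by 0.26, while Agps, the next enzyme of that route, stood at 0.03 and was not called.

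Breakdown of leucine, isoleucine and valine feeds both the TCA cycle and lipid synthesis in fat cells. Of 27 genes 22 were higher and 2 lower (median 0.39). Bcat2, the mitochondrial aminotransferase of the first step, stood at 84.8, 81.9 and 84.6 FPKM untreated and 156, 155 and 149 FPKM treated, a log2 fold change of 0.87 with an SE of 0.042 (limma adjusted p = 1.5e-05). The groups did not overlap. Subunits of the committed dehydrogenase rose alike, Bckdha by 0.61, Bckdhb by 0.64 and Dbt by 0.56. Pccb and Mut, on the propionate branch, rose by 0.53 and 0.47. Bcat1, the cytosolic aminotransferase, fell by 0.43, and Abat, a GABA transaminase, fell by 0.24. The call of Abat was lost at limma adjusted p = 0.0616 without untreated library 2, 0.0566 without untreated library 3 and 0.0525 without treated library 1.

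Cdo1, cysteine dioxygenase, which commits cysteine to taurine or sulfate, was among the 15 largest increases outside the adipocyte reference genes. It stood at 395, 369.8 and 373 FPKM untreated and 744, 784 and 773 FPKM treated, with a wide gap between the groups. The log2 fold change was 1.01 with an SE of 0.045 (limma adjusted p = 1.5e-05). Csad, the next enzyme towards taurine, rose by 0.53, and Cth, which makes cysteine from cystathionine, by 0.53. On the glutathione side Gclc, the catalytic subunit of the limiting enzyme, fell by 0.35, Slc7a11, the cystine importer, fell by 0.27, and Ggt7, of the glutamyltransferase family, fell by 0.45. In the whole cysteine, taurine and glutathione list 10 of 22 genes were higher and 3 lower (median 0.14), with 6 higher when untreated library 1 was left out.

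Of 25 one-carbon, serine and glycine genes 10 were higher and 2 lower. Mthfd2, a mitochondrial folate enzyme, rose from 16.97 ± 0.982 to 25.1 ± 0.583 FPKM (means ± SD, n = 3), for a log2 fold change of 0.54. Aldh1l2, a mitochondrial enzyme that burns formyl-folate, fell from 6.19 ± 0.494 to 4.29 ± 0.552 FPKM, at -0.45, and Mthfd1l, of the same compartment, fell by 0.33. The cytosolic counterpart Aldh1l1 rose by 0.37.

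Carbohydrate handling was described apart from glucose uptake. Of 37 genes 23 were higher and 5 lower (median 0.33), or 3 lower without any 1 untreated library or treated library 2. All 7 pentose phosphate genes tested were higher, among them Taldo1, transaldolase, at 146, 148 and 146 FPKM untreated and 251, 242 and 237 FPKM treated, a log2 fold change of 0.72 with an SE of 0.037 (limma adjusted p = 1.5e-05). G6pdx, which makes NADPH in the first step, rose by 0.60, and Tkt, transketolase, by 0.54. Of 14 glycogen genes 9 were higher and 1 lower. Gbe1, the branching enzyme, rose by 0.84, Ppp1r3b, a phosphatase subunit that activates glycogen synthase, by 0.78, and Gys1, glycogen synthase, by 0.49. The phosphorylase gene Pygl, which breaks glycogen down, fell by 0.27, but without untreated library 2 or 3 or treated library 2 or 3 it was not called, with limma adjusted p from 0.0552 to 0.0927. Pfkfb1, a bifunctional enzyme that sets the level of an activator of glycolysis, rose from 9.28 ± 0.125 to 16.7 ± 0.622 FPKM (means ± SD, n = 3), for a log2 fold change of 0.78 with an SE of 0.042 (limma adjusted p = 1.5e-05).

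Membrane lipids did not move as one. Of 31 phospholipid genes 15 were higher and 2 lower (median 0.15), or 1 lower without untreated library 2 or 3 or treated library 1. Plbd1, a phospholipase B-like gene, stood at 5.45, 5.00 and 5.41 FPKM untreated and 11.02, 9.95 and 11.01 FPKM treated, without overlap and with a log2 fold change of 0.89 with an SE of 0.063 (limma adjusted p = 2.1e-05). Chpt1, a choline phosphotransferase, rose by 0.76, Pla2g16, a phospholipase abundant in fat cells, by 0.71, and Crls1, cardiolipin synthase, by 0.39. Lpcat4, a lysophospholipid acyltransferase, fell by 0.38. Of 38 sphingolipid genes 8 were higher and 14 lower (median -0.09). Ormdl3, a brake on the first step of sphingolipid synthesis, rose from 55.3 ± 0.694 to 83.8 ± 1.94 FPKM (means ± SD, n = 3), for a log2 fold change of 0.59 with an SE of 0.035 (limma adjusted p = 1.5e-05). Ugcg, which starts glycosphingolipids, fell by 0.46. All 3 sphingosine-1-phosphate receptors tested fell, S1pr1 at -0.42, S1pr2 at -0.54 and S1pr3 at -0.58, as did the kinase Sphk1 at -0.58, whereas the lyase Sgpl1, which destroys the ligand, rose by 0.34.

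Of 36 cholesterol genes 18 were higher and 1 lower (median 0.20). Cyp51, the lanosterol demethylase, stood at 97.9, 89.9 and 95.1 FPKM untreated and 170.3, 192 and 201 FPKM treated, a log2 fold change of 0.98 with an SE of 0.073 (limma adjusted p = 2.3e-05). Dhcr7, of the last step, rose by 0.78 and Nsdhl by 0.69. Soat1, which esterifies cholesterol, fell by 0.38. Adtrp, a hydrolase of hydroxy fatty acid esters outside these lists, rose from 2.66 ± 0.423 to 6.14 ± 0.534 FPKM (means ± SD, n = 3), for a log2 fold change of 0.97 with an SE of 0.17 (limma adjusted p = 0.0021).

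Retinoid and steroid genes were divided, with 12 of 29 higher and 7 lower. Hsd17b12, a reductase of fatty acid elongation and of steroids, rose by 0.73, Aldh1a7 by 0.88 and the retinol dehydrogenase Rdh12 by 0.77. The retinoic acid makers Aldh1a1 and Aldh1a2 fell, at -0.43 and -0.59. Cyp1b1, a steroid hydroxylase, stood at 161, 157 and 159.9 FPKM untreated and 109, 103 and 102 FPKM treated, a log2 fold change of -0.60 with an SE of 0.040 (limma adjusted p = 1.7e-05). Fmo1, a flavin monooxygenase of foreign compounds, was among the largest increases at 16.5, 13.98 and 14.4 FPKM untreated and 28.6, 32.3 and 35.02 FPKM treated, with a log2 fold change of 1.04 with an SE of 0.086 (limma adjusted p = 3.8e-05). Of 16 carbonic anhydrase and acid-base transport genes 5 were higher and 2 lower (median 0.03), or 1 lower without untreated library 1 or 2 or treated library 2. The cytosolic carbonic anhydrase Car2 rose by 0.77 and the mitochondrial Car5b by 0.68. Slc16a3, a lactate exporter, fell from 6.10 ± 0.341 to 3.08 ± 0.626 FPKM (means ± SD, n = 3), at -0.81.

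Related enzymes did not always move together. Of 44 pairs of paralogs or alternative isoforms in which both genes were tested, 8 had 1 gene called higher and the other called lower, 12 had both higher and 4 both lower. In 20 pairs at least 1 gene was not called. The sharpest split was in a subunit of cytochrome oxidase. Ndufa4 stood at 191, 187 and 180.3 FPKM untreated and 251, 269.9 and 239.9 FPKM treated, while its paralog Ndufa4l2, on chromosome 10, 135576184 to 135578397, plus strand, stood at 28.4, 33.1 and 32.001 FPKM untreated and 13.9, 11.2 and 11.5 FPKM treated. Neither gene's groups overlapped, and the log2 fold changes were 0.44 with an SE of 0.057 (limma adjusted p = 0.00041) for Ndufa4 and -1.29 with an SE of 0.14 (limma adjusted p = 0.00014) for Ndufa4l2. At 50 µM the values of Ndufa4l2 were 28.8, 37.7 and 43.2 FPKM, none of them below the lowest untreated value.

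Glucose enzymes and transporters split in the same manner. Hk2, the insulin-responsive hexokinase, rose by 0.44, while the widespread Hk1 fell by 0.45, from 9.81, 9.80 and 9.76 FPKM to 7.01, 6.57 and 7.16 FPKM. The transporter Slc2a4 rose by 1.14 and Slc2a1, the basal transporter, fell by 0.39. Insr, the insulin receptor, rose by 0.37, and Igf1r, its close relative, fell by 0.44. The superoxide dismutases divided by place, with the cytosolic Sod1 at 0.43 and the secreted Sod3 at -0.40. Pde3b, through which insulin lowers cyclic AMP, rose by 0.58, against -0.23 for Pde4b. The lower call of Pde4b was weak, with limma adjusted p = 0.024. Leaving out untreated library 2 or 3 or treated library 2 or 3 took Pde4b to adjusted p from 0.0583 to 0.0798. Without treated library 2, 6 pairs were opposite, and over all alternatives the count ran from 6 to 10.

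**Figure D3:**
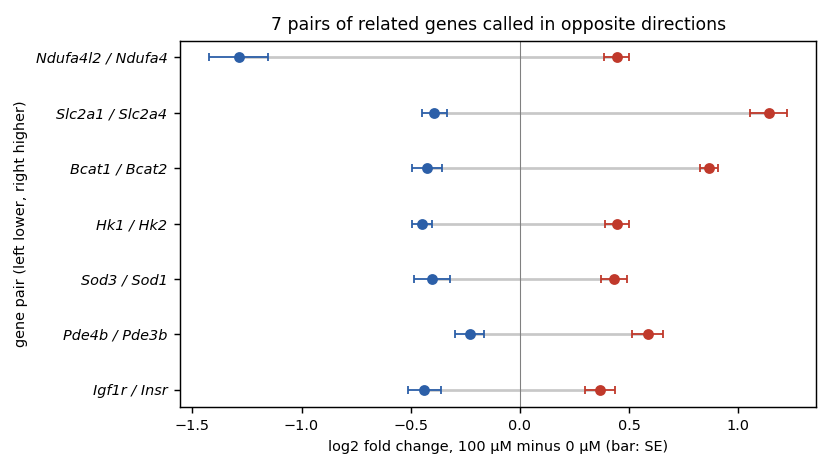
Log2 fold change (100 µM minus 0 µM, horizontal axis) of both genes in 7 of the 8 pairs called in opposite directions, with bars for the SE from limma. In each row the gene named first lies below 0 and the gene named second above 0, with the widest gap for Ndufa4l2 and Ndufa4.

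Extracellular matrix genes were lower across their classes. Stromal progenitor markers moved with them, 10 of 15 being lower. The sum of these markers went from 997 to 1090 FPKM untreated to 599 to 668 FPKM treated. Their part in this and the following matrix, adhesion, cytoskeletal and growth factor results was not tested. Of 45 matrix glycoproteins and elastic fibre genes, 34 were lower and 1 higher (median -0.43). Wisp2, a secreted CCN protein of adipose precursors, stood at 115, 125 and 124 FPKM untreated and 71.7, 66.1 and 69.6 FPKM treated, a log2 fold change of -0.80 with an SE of 0.050 (limma adjusted p = 1.6e-05). Thbs2, thrombospondin 2, fell by 0.73, Emilin2, an elastic fibre protein, fell by 0.60, and Fbln2, fibulin 2, fell by 0.75. Spp1, osteopontin, stood at 59.1, 62.8 and 56.2 FPKM untreated and 33.3, 29.3 and 24.03 FPKM treated, a log2 fold change of -1.02 with an SE of 0.10 (limma adjusted p = 9.5e-05). All treated values lay under all untreated ones in both genes. The gene that rose was Smoc1, a calcium-binding basement membrane protein, from 26.002 ± 0.238 to 39.4 ± 2.10 FPKM (means ± SD, n = 3), at 0.58.

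Collagen chains were more mixed, with 12 of 22 lower and 3 higher. Col12a1, which decorates fibrils, stood at 51.1, 48.8 and 47.9 FPKM untreated and 26.4, 22.7 and 24.4 FPKM treated, a log2 fold change of -0.98 with an SE of 0.063 (limma adjusted p = 1.6e-05). Col11a1, which nucleates them, fell by 0.78, Col8a1, a short-chain collagen, fell by 0.63, and the fibril formers Col1a1 and Col1a2 fell, at -0.37 and -0.42. The 3 chains of collagen VI, a matrix of mature fat, were not called, at -0.02, 0.06 and -0.10 for Col6a1, Col6a2 and Col6a3. The higher calls, Col5a3 at 0.19, Col11a2 at 0.30 and Col15a1 at 0.11, were small, and none of the collagens was called higher with a common sum per library. Leaving out any single library ended the calls of Col11a2, at limma adjusted p from 0.0654 to 0.138, and of Col15a1, at 0.0745 to 0.125. For Col5a3 this held for every library except treated library 2, at 0.0509 to 0.0887.

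The genes whose products modify and cross-link collagen were lower. Of 32 genes 27 were lower and 1 higher (median -0.38). All 6 prolyl and lysyl hydroxylases tested were lower, with P4ha3 at 7.25, 8.01 and 7.91 FPKM untreated and 3.45, 2.95 and 3.14 FPKM treated, a log2 fold change of -1.06 with an SE of 0.10 (limma adjusted p = 8.3e-05). P4ha1 fell by 0.54, P4ha2 fell by 0.74 and Plod2, which shapes stiff cross-links, fell by 0.55. All 5 lysyl oxidases were lower. Lox, the founding member, stood at 403, 369.7 and 399 FPKM untreated and 208, 189 and 194 FPKM treated, all treated values well under all untreated ones. The log2 fold change was -0.98 with an SE of 0.054 (limma adjusted p = 1.5e-05). Loxl2, Loxl3 and Loxl4 fell, at -0.71, -0.79 and -0.64. The exception was the sulfatase Sulf2 at 0.20, a call that was lost with a common sum, with the factor removed and under quantile normalization, whereas Sulf1 fell by 0.67.

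Matrix-degrading enzymes and their inhibitors fell side by side. Of 40 genes 23 were lower and 1 higher. Mmp3, stromelysin, on chromosome 9, 4469008 to 4480331, plus strand, stood at 88.6, 91.5 and 87.5 FPKM untreated and 43.02, 40.5 and 35.4 FPKM treated, a log2 fold change of -1.15 with an SE of 0.081 (limma adjusted p = 2.1e-05). Timp1, an inhibitor of such enzymes, stood at 199, 211 and 200.2 FPKM untreated and 119, 101 and 91.6 FPKM treated, a log2 fold change of -0.97 with an SE of 0.12 (limma adjusted p = 0.00026). The groups of both genes were apart, and Timp2 and Timp3 fell as well, at -0.61 and -0.55. Adamts5, an aggrecanase, fell by 0.65 and the membrane-bound Mmp14 fell by 0.42. Mmp28 was the gene that rose, from 7.95 ± 0.93 to 11.9 ± 1.14 FPKM (means ± SD, n = 3), at 0.52.

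**Figure D4:**
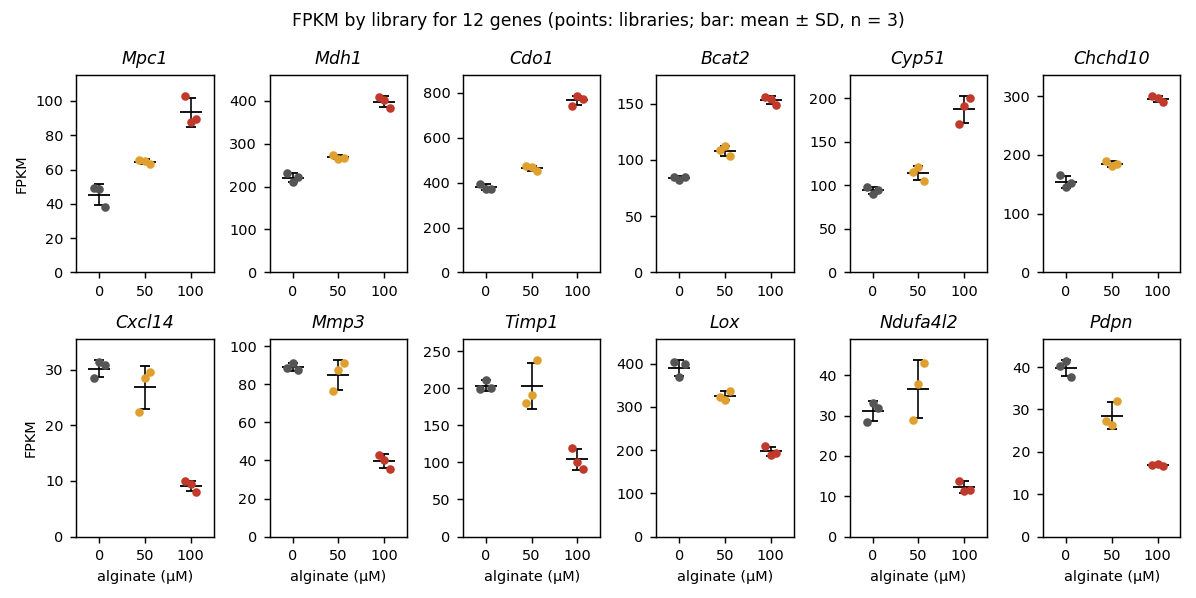
FPKM in each library (points) at 0, 50 and 100 µM alginate (horizontal axis), with the mean and SD (n = 3), for 6 genes that rose and 6 that fell. In all 12 panels the 3 libraries at 100 µM lie clear of the 3 untreated ones, while the 50 µM libraries of Cxcl14, Mmp3, Timp1 and Ndufa4l2 lie near or among the untreated values.

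RNA of the plasminogen system, which activates proteases at the cell surface, and of the serpins that restrain it was lower on both sides. Of 27 genes 22 were lower and 0 higher (median -0.37). Plau and Plat, the plasminogen activators, fell, at -0.65 and -0.53. F3, tissue factor, stood at 142, 143 and 139 FPKM untreated and 88.98, 92.5 and 91.6 FPKM treated, a log2 fold change of -0.63 with an SE of 0.049 (limma adjusted p = 2.9e-05). F2r, the thrombin receptor, fell from 23.4 ± 1.03 to 14.6 ± 1.24 FPKM (means ± SD, n = 3), at -0.64 with an SE of 0.075 (limma adjusted p = 0.00024). The AP-1 motif TGANTCA, on both strands, was in 6.75% of all promoters and in 4.42% of those of the genes tested. In this list it was in 7 of 23 promoters, which belong to 19 genes, or 30.4%. Promoters of all genes called lower held it in 5.63% and those called higher in 4.26%. The F2r promoter is shown because this gene had the largest decrease among members of the list with a matched promoter that holds the motif. It spans chr13:95618467-95618716 (RefSeq, GRCm38.p6, minus strand), with the match in capitals 204 bases before the start.
F2r: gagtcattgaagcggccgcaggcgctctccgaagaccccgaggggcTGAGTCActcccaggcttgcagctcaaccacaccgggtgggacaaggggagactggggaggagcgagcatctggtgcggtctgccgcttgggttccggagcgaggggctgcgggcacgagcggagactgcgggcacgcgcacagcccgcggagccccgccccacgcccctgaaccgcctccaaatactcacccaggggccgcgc
The letters say nothing about which factor, if any, was bound.

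Of 57 genes of proteoglycan and hyaluronan synthesis 28 were lower and 6 higher, or 3 higher without untreated library 3. Csgalnact1, which starts chondroitin chains, stood at 21.1, 22.4 and 20.2 FPKM untreated and 12.5, 12.5 and 11.7 FPKM treated, a log2 fold change of -0.75 with an SE of 0.051 (limma adjusted p = 1.9e-05). Has2, a hyaluronan synthase, Cd44, the hyaluronan receptor, and Cemip, which degrades hyaluronan, fell, at -0.55, -0.53 and -0.69. All 4 syndecans were lower, Sdc1 at -0.35, Sdc2 at -0.36, Sdc3 at -0.49 and Sdc4 at -0.47. Hyal2, a hyaluronidase, rose by 0.29. Among small leucine-rich proteoglycans 5 of 9 were lower and 0 higher, or 1 higher without untreated library 1, with Bgn, biglycan, at -0.47.

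Receptors for matrix were lower as well. Of 42 integrin, laminin and basement membrane genes 27 were lower and 2 higher. Itga5, the fibronectin receptor chain, stood at 73.03, 80.3 and 74.6 FPKM untreated and 47.8, 48.8 and 48.7 FPKM treated, a log2 fold change of -0.64 with an SE of 0.055 (limma adjusted p = 4.9e-05). The genes that rose were both laminin-binding chains. Itga6 stood at 30.7, 29.02 and 30.7 FPKM untreated and 41.1, 43.6 and 43.4 FPKM treated, a log2 fold change of 0.49 with an SE of 0.059 (limma adjusted p = 0.00029), and Itga7 rose by 0.39. The groups of Itga5 and of Itga6 lay apart in opposite directions. Of the laminin chains, Lama2 fell by 0.49, and Lama4, at -0.04, was not called.

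Of 39 adhesion genes 25 were lower and 4 higher, or 2 higher without untreated library 1. Pdpn, podoplanin, a mucin-like protein of motile stromal cells, lies on chromosome 4, 151513477 to 151549400, minus strand and stood at 40.2, 41.5 and 37.8 FPKM untreated and 16.99, 17.01 and 16.6 FPKM treated. The treated libraries lay close together and all under the untreated ones, with a log2 fold change of -1.19 with an SE of 0.071 (limma adjusted p = 1.5e-05). Jam3, a junctional adhesion molecule, fell by 0.62 and Cdh11, the cadherin of mesenchymal cells, fell by 0.43. Alcam and Cldn1 rose, by 0.48 and 0.57. Among annexins and S100 proteins 5 of 17 were lower and 1 higher. S100a6, a calcium-binding protein of growing cells, stood at 286, 350.0 and 321 FPKM untreated and 169, 171 and 136 FPKM treated, a log2 fold change of -1.004 with an SE of 0.15 (limma adjusted p = 0.00099). Anxa3, an annexin found on adipose progenitors, fell by 0.96, and S100a1 rose by 0.62.

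Contractile and cytoskeletal genes were lower in the main. Of 63 actin and contractile genes 40 were lower and 2 higher (median -0.33), or 1 higher without untreated library 1 or 2 or treated library 1 or 2. Actn1, an actin cross-linker of stress fibres, stood at 39.7, 44.3 and 43.9 FPKM untreated and 27.7, 25.6 and 26.1 FPKM treated, a log2 fold change of -0.67 with an SE of 0.062 (limma adjusted p = 6.5e-05). Acta2, smooth muscle actin, fell by 0.63, Tpm4 fell by 0.68 and Cald1, caldesmon, fell by 0.54. Several core components were not called, among them Pfn1, profilin, at 0.01, Actn4 at 0.01 and Myl6 at -0.003. Fhl1, a LIM domain protein, rose from 80.7 ± 2.06 to 114 ± 6.16 FPKM (means ± SD, n = 3), at 0.49 with an SE of 0.048 (limma adjusted p = 8.9e-05), while its relative Fhl2 fell by 0.51. Of 21 tubulin, intermediate filament and lamin genes 12 were lower, among them Vim, vimentin, at -0.30. Rock2, the kinase that drives myosin contraction, fell by 0.51, and the small GTPase Rhoj fell by 0.53.

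SRF, the factor that controls many contractile genes, binds the CArG box. That motif was in 1.47% of all promoters and in 1.14% of those of the genes tested. In the actin list it was in 9 of 68 promoters, which belong to 51 genes, or 13.2%. Among promoters of genes called lower it was in 1.86%, and among those of genes called higher in 0.787%. Srf at -0.01 was not called, and its coactivator Mkl1 fell by 0.32. Fhl2 is shown because it had the largest decrease among members with a matched promoter that holds the box. Its promoter lies at chr1:43196762-43197011 (RefSeq, GRCm38.p6, minus strand), where the capitals start 96 bases before the gene.
Fhl2: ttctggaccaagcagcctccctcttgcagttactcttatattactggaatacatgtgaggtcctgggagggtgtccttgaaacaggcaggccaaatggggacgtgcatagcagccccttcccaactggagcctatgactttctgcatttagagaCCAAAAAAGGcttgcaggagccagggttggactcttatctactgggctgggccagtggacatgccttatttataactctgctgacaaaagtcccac

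YAP and TAZ carry mechanical signals to TEAD factors. Of 28 genes of that pathway and its targets 16 were lower and 2 higher (median -0.28). Axl, a receptor tyrosine kinase, stood at 55.4, 53.1 and 54.8 FPKM untreated and 34.4, 30.999 and 31.6 FPKM treated, a log2 fold change of -0.74 with an SE of 0.047 (limma adjusted p = 1.6e-05). Ctgf and Cyr61, secreted targets, fell, at -0.89 and -0.58, and Myof, a membrane repair protein, fell by 0.64. The genes that rose were Dlc1, a GTPase-activating protein, at 0.33, and Wwtr1, which encodes TAZ, at 0.14. The second of these calls was lost with a common sum, the factor removed or quantile normalization. The TEAD motif GGAATG was in 12.6% of all promoters and in 10.5% of those of the genes tested. In this list it was in 11 of 26 promoters, which belong to 21 genes, or 42.3%. Promoters of genes called lower had it in 13.2% and those of genes called higher in 9.68%. The Axl promoter is printed because this gene had the largest decrease among members with a matched promoter that holds the motif. This promoter lies at chr7:25788734-25788983 (RefSeq, GRCm38.p6, minus strand), with the match in capitals 233 bases before the start. The list was drawn up from known TEAD targets, so a high share of the motif in it was not independent of the choice.
Axl: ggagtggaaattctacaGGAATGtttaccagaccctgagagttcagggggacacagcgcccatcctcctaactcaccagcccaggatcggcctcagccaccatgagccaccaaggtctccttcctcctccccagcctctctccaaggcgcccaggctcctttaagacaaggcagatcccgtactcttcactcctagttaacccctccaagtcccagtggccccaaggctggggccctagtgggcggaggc

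Growth factor systems that act on stromal cells were also lower. In the BMP, activin and TGF-beta pathway 29 of 51 genes were lower and 3 higher (median -0.24). Among ligands, Inhba, the activin A chain, stood at 8.26, 9.71 and 9.03 FPKM untreated and 4.72, 3.64 and 4.35 FPKM treated, a log2 fold change of -0.94 with an SE of 0.085 (limma adjusted p = 6.1e-05). Inhbb fell by 0.65 and Bmp4 fell by 0.34. Among receptors Tgfbr2 fell by 0.44 and Acvr1b fell by 0.44, while Acvr1c, the ALK7 receptor of mature fat, rose from 3.13 ± 0.517 to 6.06 ± 0.696 FPKM (means ± SD, n = 3), at 0.78. The BMP antagonist Chrdl1 rose by 0.47. Fstl1, a secreted follistatin-like protein, stood at 459, 462 and 475 FPKM untreated and 294, 272 and 276 FPKM treated, a log2 fold change of -0.73 with an SE of 0.046 (limma adjusted p = 1.6e-05). Inside the cell Smad3 fell by 0.50 and Id2, a target of BMP signals, fell by 0.47, while Id1 at -0.10 and Id3 at -0.15 were not called.

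Of 33 Wnt genes 13 were lower and 2 higher, but 0 were higher under a common sum or without untreated or treated library 3, and 1 without untreated library 1 or 2 or treated library 2. Among receptors Fzd1 fell by 0.50 and Ror1 fell by 0.58, while Lrp6 at -0.14 was not called. The secreted inhibitors Sfrp1 and Sfrp2 fell, at -0.70 and -0.44. Sfrp1 stood at 115, 99.5 and 93.9 FPKM untreated and 70.02, 57.8 and 60.4 FPKM treated, without overlap. Ctnnb1, beta-catenin, was at -0.04, with no call.

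Of 49 other growth factors and receptors 28 were lower and 8 higher. Fgf7, a mesenchymal growth factor for epithelia, stood at 29.5, 26.3 and 26.3 FPKM untreated and 13.6, 15.2 and 15.1 FPKM treated, a log2 fold change of -0.86 with an SE of 0.063 (limma adjusted p = 2.3e-05). Kitl, stem cell factor, fell by 0.78 and Csf1, the macrophage growth factor, fell by 0.63. Those that rose included Vegfb, a ligand made by oxidative tissue, from 14.2 ± 0.571 to 23.4 ± 0.991 FPKM (means ± SD, n = 3), at 0.68 with an SE of 0.069 (limma adjusted p = 0.0001). Klb, the co-receptor for FGF21, rose by 0.62, Nrg4, a secreted product of fat, by 0.47 and Fgf21 by 0.69. In the IGF system 11 of 17 genes were lower, among them Igfbp3 at -0.42 and Pappa, the protease that frees IGF, at -0.62, or 7 lower when treated library 1 or 2 was left out. Of 40 guidance genes 18 were lower and 2 higher, or 4 higher with voom, with Plxnb2 at -0.48 and Slit2 at -0.48.

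Chemokines and cytokines were lower with no gene called higher. Of 22 chemokine genes 13 were lower (median -0.41), led by Cxcl14 and Cxcl5. Cxcl5, which draws neutrophils, stood at 42.7, 41.4 and 45.8 FPKM untreated and 17.7, 15.6 and 14.5 FPKM treated, a log2 fold change of -1.39 with an SE of 0.089 (limma adjusted p = 1.6e-05). Ccl2, Ccl7 and Ccl9, which draw monocytes, fell, at -0.47, -0.52 and -0.45, and Ackr3, a scavenging receptor, fell by 0.76. Cxcl12, a stromal chemokine that holds blood progenitors in place, was at -0.14 with no call. Of 47 cytokine and NF-kB genes 24 were lower. Osmr and Il1r1, receptors for oncostatin M and interleukin 1, fell, at -0.62 and -0.56, and Il33 fell by 0.82. The acute phase genes Lcn2 at -0.04, Saa3 at 0.16 and Hp at 0.11 were not called. Macrophage markers moved with these genes, 11 of 13 being lower and their sum going from 299 to 329.8 FPKM untreated to 238 to 248 FPKM treated, and their part in the result was not tested.

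Interferon genes did not move together. Of 44 genes 6 were higher and 7 lower, and under a common sum 3 were higher and 12 lower. The main shares, 13.6% higher and 15.9% lower, stood beside 18.3% and 15.6% over all genes tested. Ifi27l2a stood at 14.7, 12.4 and 19.2 FPKM untreated and 32.8, 28.3 and 36.4 FPKM treated, a log2 fold change of 1.04 with an SE of 0.16 (limma adjusted p = 0.001). Its relative Ifi27, an interferon-induced protein of mitochondria, rose from 147 ± 8.37 to 226 ± 7.80 FPKM (means ± SD, n = 3), at 0.62. Close copies can share reads, so the levels of these relatives are uncertain. Ifitm3, a membrane protein that blocks viruses, fell by 0.53 and Tap1 fell by 0.48. In complement, 7 of 18 genes were lower, among them C1qc at -0.32, and the adipocyte product Cfd was the gene called higher.

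Of 770 annotated transcription factors 84 were higher and 124 lower (median -0.02). The nuclear receptor list was tilted upward, with 13 of 35 higher and 4 lower (median 0.16), though 7 were higher under a common sum and 7 without untreated library 2, and 2 were lower without untreated library 1 or 2 or treated library 1 or 2 and 7 with the factor removed. Ppara, the receptor of fatty acid oxidation, stood at 8.36, 5.59 and 6.66 FPKM untreated and 15.2, 13.2 and 15.9 FPKM treated, a log2 fold change of 1.02 with an SE of 0.15 (limma adjusted p = 0.00086). The treated values were all above the untreated ones. Nr1h3, which encodes LXRα, rose by 0.58. Vdr, the vitamin D receptor, fell from 8.78 ± 0.242 to 4.70 ± 0.592 FPKM (means ± SD, n = 3), at -0.78 with an SE of 0.091 (limma adjusted p = 0.00024). Thra at 0.04, Esr1 at -0.04 and Nr3c1 at 0.11 were not called.

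Positional and lineage factors moved in both directions. Of 53 Hox, Tbx and positional genes 14 were lower and 5 higher, or 3 higher under a common sum. Prrx1, a limb and stroma factor, stood at 44.3, 41.8 and 44.8 FPKM untreated and 31.5, 32.1 and 31.2 FPKM treated, a log2 fold change of -0.45 with an SE of 0.039 (limma adjusted p = 4.9e-05). Tbx15 and Tbx18 fell, at -0.50 and -0.43, and Osr1 fell by 0.45. Of 23 Hox genes, which record position in the body, 3 were higher and 2 lower, beside 18.3% and 15.6% of all genes tested. Among those higher was Hoxa9, from 6.53 ± 0.32 to 10.4 ± 0.203 FPKM (means ± SD, n = 3), at 0.60. Of 71 lineage factors 19 were lower and 7 higher, with 4 higher without untreated library 1, 3 without untreated library 2 and 2 under a common sum. Foxo1 rose by 0.35 and Foxo3 fell by 0.39. Sox9, a cartilage factor, fell by 0.55 and Nfatc4 fell by 0.47. Of 11 Krüppel-like factors 5 were lower and 0 higher, with Klf4 at -0.44, Klf3 at -0.32 and Klf10 at -0.23, and 3 were lower without untreated library 2 or 3. Among immediate early genes 11 of 37 were lower and 5 higher, or 3 higher without untreated library 1 or 3 or treated library 2 or 3, with Fosl2 at -0.36 and Fosl1 at -0.52 against the phosphatases of MAP kinases Dusp4 at 0.63 and Dusp10 at 0.33. With a common sum or the factor removed, 18 immediate early genes were lower and 3 higher. Of 19 clock genes 5 were higher and 0 lower, with 3 higher without untreated library 2 or treated library 3. Under a common sum 4 clock genes were higher and 2 lower, and with the factor removed 5 and 3. The clock output genes Dbp and Tef rose by 0.56 and 0.32, and the core genes Arntl at 0.04 and Per2 at 0.09 were not called. Cited4, a transcriptional coactivator, rose from 2.68 ± 1.09 to 6.07 ± 0.966 FPKM (means ± SD, n = 3), at 0.97 with an SE of 0.20 (limma adjusted p = 0.0051).

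Genes of plasma membrane transport had calls in both directions. Aqp1, a water channel, stood at 12.2, 16.7 and 14.4 FPKM untreated and 7.39, 6.84 and 6.25 FPKM treated, a log2 fold change of -0.97 with an SE of 0.14 (limma adjusted p = 0.0009), while Aqp7, the glycerol channel of fat, rose by 0.55. Kcnk3, a potassium leak channel, rose by 0.76, and Kcne4, a potassium channel subunit, fell by 0.87. In amino acid transport Slc36a2, a proton-coupled carrier, stood at 54.4, 48.6 and 49.6 FPKM untreated and 90.996, 93.9 and 97.4 FPKM treated, a log2 fold change of 0.88 with an SE of 0.062 (limma adjusted p = 2.1e-05). Slc1a5, a glutamine carrier, rose by 0.60, and Slc7a2, an arginine carrier, fell by 0.45. These genes came from 3 lists. Higher were 9 of 36 amino acid and glucose transporters, 13 of 87 other solute carriers and 7 of 54 channels and pumps. Lower in these lists were 10, 18 and 15. The shares called higher, in that order, were 25%, 14.9% and 12.96%, beside 18.3% over all genes tested. The shares called lower were 27.8%, 20.7% and 27.8%, beside 15.6%. No list was tested against the shares over all genes. With voom 11 channels and pumps were higher, and with a filter of 5 FPKM 8 amino acid and glucose transporters were higher and 6 lower.

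Of 103 receptors and cyclic AMP genes 24 were higher and 30 lower. Among receptors, those for melanocortins rose, Mc2r by 0.75 and Mc5r by 0.74, as did Adora1, the adenosine receptor that restrains lipolysis, at 0.74. Adgrd1, an adhesion receptor, stood at 25.9, 25.4 and 24.8 FPKM untreated and 14.8, 13.8 and 14.3 FPKM treated, a log2 fold change of -0.78 with an SE of 0.045 (limma adjusted p = 1.5e-05). Agtr1a, the angiotensin receptor, fell by 0.58, Ednrb, an endothelin receptor, fell by 0.48, and Lpar1 fell by 0.51. Downstream, the protein kinase A genes Prkar2b and Prkaca rose by 0.55 and 0.47, the G protein Gnao1 by 0.71, and the scaffold Akap12 fell by 0.59. Gnas, the stimulatory G protein, was at -0.08 with no call.

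Proliferation genes were lower at 100 µM, and the part of the adipocyte and stromal marker shifts in this was not tested. Of 52 cell cycle genes 34 were lower and 3 higher (median -0.32). Top2a, a topoisomerase of dividing cells, stood at 13.6, 13.7 and 14.1 FPKM untreated and 9.17, 9.70 and 10.1 FPKM treated, a log2 fold change of -0.47 with an SE of 0.049 (limma adjusted p = 0.00012). Mki67 fell by 0.49, Ccna2 fell by 0.43 and Ccnd1, cyclin D1, fell by 0.64. Cdkn2c, a cell cycle inhibitor, rose from 37.8 ± 1.14 to 52.5 ± 1.17 FPKM (means ± SD, n = 3), at 0.47 with an SE of 0.044 (limma adjusted p = 7.1e-05), and E2f2, an S phase factor, rose by 0.55. Of 42 p53 and cell death genes 16 were lower and 4 higher, or 2 higher without untreated library 1 or 2 or treated library 1 or 2, with Trp53 itself at -0.52 and Cdkn1a, its best known target, at 0.11 without a call.

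Hypoxia targets had 14 of 24 genes lower and 4 higher, with 1 or 2 higher without any single library but treated library 3 and 1 under a common sum. Hif1a fell by 0.49, from 65.05 ± 4.89 to 45.9 ± 0.283 FPKM (means ± SD, n = 3), and Adm, adrenomedullin, fell by 0.57. Several members, among them Ndufa4l2, Lox, P4ha1 and Plod2, also stand in the collagen or paralog lists, so these counts are not independent.

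Iron, redox and lysosomal genes were split between directions. Of 18 iron genes 7 were lower and 4 higher. Slc39a14, which imports metal ions, fell by 0.61, and the exporter Slc40a1 fell by 0.43, while Tfrc, the transferrin receptor, rose by 0.32, Aco1, the iron-sensing aconitase, by 0.57, and the metal oxidoreductases Hephl1 and Steap4 by 0.58 and 0.35. Antioxidant and glutathione transferase genes had 13 higher and 13 lower of 39, with 6 lower without untreated library 2 and 8 lower without treated library 1 or 3. Prdx3, a mitochondrial peroxiredoxin, rose by 0.71 and Txn2, its thioredoxin, by 0.44, while the ER member Gpx8 fell by 0.59. Gstz1, an enzyme of tyrosine breakdown, rose from 24.2 ± 1.56 to 45.6 ± 2.77 FPKM (means ± SD, n = 3), at 0.89 with an SE of 0.068 (limma adjusted p = 2.8e-05). In lysosomes 12 of 60 genes were higher and 17 lower. The proton pump had 8 of 18 genes higher and 1 lower, and the cathepsins 2 of 11 higher and 5 lower, with Ctsd at 0.30 and Ctsk, which digests collagen, at -0.56. In the endoplasmic reticulum the disulfide isomerases Pdia6 and Pdia3, which fold secreted proteins, fell, at -0.35 and -0.30, the main chaperone Hspa5 at -0.05 was not called, and Dnajb9 and Derl1, of misfolded protein disposal, rose by 0.68 and 0.56.

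Traffic, nucleotide and oxylipin genes had calls both ways. Of 81 small GTPases and regulators 26 were lower and 9 higher, with 17 lower without untreated library 3 and 42 with the factor per library removed. Arhgdib, a GTPase inhibitor of blood cells, fell by 0.60, and Arhgef37, a putative exchange factor, rose by 0.66. Of 119 vesicle traffic genes 16 were lower and 12 higher, or 10 lower and 8 higher without untreated library 2. The main shares, 13.4% lower and 10.1% higher, were below the 15.6% and 18.3% over all genes tested. Rab31 was at -0.56 and Rab3a, of regulated secretion, at 0.57. The balance of vesicle traffic genes turned without untreated library 3, with 11 lower and 12 higher, while 26 were lower and 6 higher under a common sum and 24 and 9 with the factor per library removed. Of 42 NAD, nucleotide and creatine genes 16 were higher and 6 lower, or 10 lower with the factor removed or with voom. Nadsyn1, the last enzyme of NAD synthesis, rose by 0.66 and the mitochondrial deacylases Sirt3 and Sirt5 by 0.58 and 0.47, while Cd38, which consumes NAD, fell by 0.47 and Ampd3, an AMP deaminase, fell from 19.3 ± 0.594 to 11.5 ± 0.531 FPKM (means ± SD, n = 3), at -0.70. Of 20 prostaglandin and oxylipin genes 7 were higher and 7 lower, with 4 higher without untreated library 2 or 3 or under a common sum. In the prostacyclin arm Ptgs1, a cyclooxygenase, fell by 0.65, Ptgis, the synthase, fell by 0.61 and Ptgir, the receptor, fell by 0.49. The prostaglandin E synthases Ptges and Ptges2 rose by 0.47 and 0.61. Of 36 autophagy genes 11 were higher and 1 lower, led by Optn, a receptor for damaged mitochondria, at 0.52, but 6 were higher and 4 lower under a common sum and 7 higher without untreated library 2.

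Some lists scarcely moved. Of 58 splicing genes 5 were higher and 3 lower, and of 62 chromatin genes 7 were higher and 5 lower, both below the shares over all genes. Counts this small changed with most single libraries left out, and under a common sum 1 splicing gene was higher and 7 lower, and 2 chromatin genes higher and 6 lower. Hdac7, a histone deacetylase, was the largest change among the latter, from 20.3 ± 0.685 to 12.97 ± 0.224 FPKM (means ± SD, n = 3), at -0.61 with an SE of 0.041 (limma adjusted p = 1.8e-05). Among translation factors and tRNA synthetases 18 of 73 were higher and 4 lower, but 5 were higher and 10 lower under a common sum, and 10 were higher without treated library 2, so no direction is given. The same holds for heat shock genes (11 higher and 4 lower of 48, 7 and 8 under a common sum) and for caveolae (5 and 2 of 13, 4 and 6), although the caveolins Cav1 and Cav2 rose by 0.38 and 0.48 and the small heat shock protein Cryab fell by 0.71.

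Of 1277 genes annotated as other than protein coding, among them long non-coding RNAs, small RNAs and pseudogenes, 77 were higher and 63 lower. Gm43031, annotated as a sense intronic RNA, had 127, 116 and 120 rebuilt reads in the untreated libraries and 264, 263 and 279 in the treated ones, a log2 fold change of 0.97 with an SE of 0.11 (limma adjusted p = 0.00017). Its treated libraries all lay above the untreated ones. Reads of its host gene's unspliced RNA cannot be told apart from its own, and whether strand was used in counting is not stated. Of the 10 such RNAs chosen for the largest changes, 5 had under 10 reads in every library, as with the annotated miRNA gene Mir7227, at 3, 2 and 2 reads untreated and 0 in each treated library. Total RNA in a messenger kit does not measure mature miRNAs.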

How the data were processed

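Gene-level FPKM were deposited by the authors in 1 table for all 9 libraries, made with a SMARTER mRNA-Seq kit per the labels' protocols. Builds GRCm38 and mm10 are named in the submitters' processing notes, while the table carries gene IDs and coordinates of the C57BL/6NJ strain. The aligner, counter and strand setting were not given in the sources used here. Deposited FPKM times gene length fell on whole reads per library, within a tolerance of 0.01 read, from which reads and a scaling factor per library were rebuilt. No gene of the mitochondrial chromosome was analysed here.

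Genes that reached 1 FPKM in 3 or more libraries were tested with limma 3.58.1 in R 4.3.3 (trend, robust off, 1 mean per dose, all 9 libraries in the fit, contrast 100 minus 0 µM) on log2(FPKM + 1), with Benjamini-Hochberg adjustment over all 12635 genes and calls below 0.05. The script was tested on simulated data. The 50 µM libraries entered only the estimate of spread. Lists were described by counts and medians, with no test of a list. Named genes were the 15 largest changes in each direction among called protein-coding genes of at least 5 FPKM in the higher group without overlap and outside the adipocyte reference list, up to 3 called genes with the smallest p per list and direction, both genes of opposite paralog pairs, and 5 non-coding genes per direction with at least 2 FPKM. Further list members, all genes without a call among them, were named after their values were seen, and where a list had few members in a direction, those that kept their calls were preferred. Some genes that these rules name are not reported here. Members and lists were chosen with earlier results of these data known. Promoters came from RefSeq (GRCm38.p6), and 8417 of the 12635 genes matched by symbol. Genes without a match, and part of the genome, were left out when promoters to print were chosen. Alternatives covered the pseudocount, the filter on low values, the scaling, the fit, a replicate block and each library left out.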

Additional observations from a re-analysis of the deposited data

How the results depend on the processing

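In each of the 16 alternative settings run, 0 of the main calls took the opposite direction. Counts of higher and lower genes stayed within 1.5 times of 2314 and 1965, at 1867 to 2112 and 1496 to 1721 with 1 library left out. Scaling moved the balance most, with 54.1% of calls higher in the main setting, 38.2% under a common sum (TPM) and 39.4% with the factor per library removed. Of all 4279 main calls, 3300 to 3557 were kept with 1 library left out and 3595 under a common sum. Of 329 called genes named in the text, 291 kept their calls in all 16 settings. A further 24 kept them in the 15 that tested them, being under the filter of 5 FPKM, and 14 lost them in at least 1. Named genes were chosen largely for small p or for kept calls, so their share does not describe all calls. Col15a1 changed sign under quantile normalization, at -0.017 with limma adjusted p = 0.81, and the cause was not tested. Lists with more higher than lower members numbered 26 of 68 and 21 to 28 in the alternatives, and 7 lists changed direction in some setting, aminoacyl-tRNA synthetases, heat shock, caveolae, chromatin, splicing, vesicle traffic and amino acid transporter genes. Same-numbered libraries did not deviate together, with correlations of 0.0412, 0.0322 and -0.0120. Whether they shared a culture or an animal cannot be told from these values, since the labels do not say what was replicated. With the replicate block 2061 genes were higher and 1747 lower. Planned count tests with edgeR and DESeq2 on rebuilt reads were not run, since the deposited values are FPKM. Voom on rebuilt reads gave 2316 higher and 2326 lower. Depth of 14019672 to 17094467 rebuilt reads per library and 3 libraries per dose limit what can be called among genes near the filter of 1 FPKM.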
